A study of Mus musculus with 18 samples.

Results

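Matricellular and matrix glycoproteins are secreted proteins that sit among the collagen fibres and on basement membranes, and 8 of their genes are described here in mouse retina after intravitreal steroid: Sparc, Mgp, Postn, Fn1, Tnc, Lum, Dcn and Thbs1. They were chosen by name, with earlier results of these data known. Every probe set that the platform's annotation assigns to 1 of these genes and to no other gene was used, which gave 14 probe sets of the 45037 tested. Counts of members below are therefore descriptions, in which a gene with several probe sets can count more than once. Sparc has 3 of them, Fn1, Tnc, Dcn and Thbs1 have 2 each, and Mgp, Postn and Lum have 1 each. A further probe set that names Thbs1 together with Pald1 was left out. The retinas came from male C57BL6/J mice aged 2 months whose eyes were injected into the vitreous at day 0. The drug was dexamethasone (DEX in the labels) or triamcinolone (TAA), both glucocorticoids, and control eyes received BSS alone. Retinas were taken at day 30 or day 7, so that the 6 groups were DEX day 30, TAA day 30, BSS day 30, DEX day 7, TAA day 7 and BSS day 7, with 3 biological replicates each and 1 array per replicate. All 6 groups had been injected, the labels give no dose, and they do not name the animals, so p-values measure the spread between these samples, part of which may be technical.

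Matricellular proteins bind collagens, integrins and growth factors and tune how cells attach and signal, rather than giving tissue its strength. Sparc (osteonectin) binds collagen and loosens cell adhesion, Tnc (tenascin C), Postn (periostin) and Thbs1 (thrombospondin 1) appear at sites of injury and remodelling, and Mgp (matrix Gla protein) keeps soft tissue from calcifying and binds bone morphogenetic proteins. Fn1 (fibronectin) is the adhesive fibre protein that integrins assemble on the cell surface, and Lum (lumican) and Dcn (decorin) are small leucine-rich proteoglycans that space collagen fibrils. In the eye these genes are studied in the vitreous, the inner limiting membrane, vessel walls and, for steroids, the outflow tissue of the anterior chamber. Glucocorticoids act through a nuclear receptor that binds DNA as a dimer at paired copies of a short half-site.

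The promoter windows are shown because the treatments act through a DNA-binding receptor and because Sparc carries one of the changes reported below. RefSeq's promoter table (build GRCm38.p6) held entries for 3 of the 8 genes, with 1 start for Sparc and 2 each for Postn and Tnc, and 1 window per gene is printed. Each window is the 250 bases before the annotated start, 5′ to 3′ on the gene's strand, and capitals mark the half-site AGAACA or its reverse complement. The Sparc window is chr11:55420081-55420330 on the minus strand, the Postn window chr3:54360857-54361106 on the plus strand, and the Tnc window chr4:64046937-64047186 on the minus strand.
Sparc: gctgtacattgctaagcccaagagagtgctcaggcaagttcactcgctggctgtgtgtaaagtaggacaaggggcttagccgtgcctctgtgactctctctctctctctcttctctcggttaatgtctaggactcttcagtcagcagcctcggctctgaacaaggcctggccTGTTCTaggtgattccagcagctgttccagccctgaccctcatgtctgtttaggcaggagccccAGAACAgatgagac
Postn: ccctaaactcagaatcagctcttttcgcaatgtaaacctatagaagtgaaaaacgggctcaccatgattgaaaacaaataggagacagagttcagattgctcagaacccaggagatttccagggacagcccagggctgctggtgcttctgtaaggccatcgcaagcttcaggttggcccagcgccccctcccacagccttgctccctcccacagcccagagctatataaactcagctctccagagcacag
Tnc: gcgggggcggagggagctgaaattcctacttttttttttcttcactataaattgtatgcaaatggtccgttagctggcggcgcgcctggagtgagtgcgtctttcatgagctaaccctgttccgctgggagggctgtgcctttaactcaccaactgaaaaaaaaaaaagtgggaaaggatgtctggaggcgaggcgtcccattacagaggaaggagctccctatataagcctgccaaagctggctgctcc
The Sparc window held 2 matches to AGAACA, searched on both strands, and the Postn and Tnc windows held 0. Of the 32851 windows in the table, 16.1% held at least 1 match, so a match is a common feature of sequence of this length and is given as a description only. TATAAA, searched on both strands, was found once in each of the printed Postn and Tnc windows and not in that of Sparc (12.4% of all windows). TGANTCA, the motif of AP-1 factors, was found in none of the 3 (6.75% of all windows). No 2 of these matches overlapped.

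The deposited values are log2 values centred on the median of the 18 arrays for each probe set, so a value of 0 is the middle array and no value is a level of expression. Levels of different genes, detection above background and the retinal identity of the tissue by its markers can therefore not be read from them, and only differences between arrays are given. Differences are tested group minus comparison group on the log2 scale, with the standard error (SE) of a limma fit across all probe sets and its p-value adjusted by Benjamini-Hochberg over all 45037, and a probe set is called when that adjusted p is under 0.05. The number of arrays limits the precision, and the residual SD within groups had a median of 0.167. TAA day 30 replicate 2 and TAA day 7 replicate 2 had the widest spread over all probe sets, with SDs of 0.349 and 0.338, against 0.146 to 0.296 on the other 16 arrays. For members other than Thbs1, a difference given below that moved by over 1.5 times without either array is given without it as well, and the values of related and marker genes were not refitted without them. Of the 11 marker lists, that of the lens had the widest range, with list means from -1.87 on a TAA day 7 array to 4.16 on a TAA day 30 array.

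Between day 30 and day 7, 2 of the 14 probe sets were called, both of them lower, and both under DEX: Mgp, and the Sparc probe set 1416589_at. In that comparison 863 of all probe sets were called, which is 1.92%. At an unadjusted p under 0.05 there were 5 of 14 members, against 18.3% of all probe sets, and in 4 of 14 the DEX day 30 and DEX day 7 arrays did not overlap, against 24% of all. Under TAA the same comparison called 0 of 14 (0% of all), although 7 of 14 had an unadjusted p under 0.05, 6 of them lower at day 30, against 11.9% of all, and 5 of 14 did not overlap, all lower at day 30, against 12.8%. In BSS eyes 0 of 14 were called (0.0133% of all), 0 had an unadjusted p under 0.05 (7.36% of all), and 1 did not overlap (21.1% of all). The median difference of the 14 probe sets was -0.11 under DEX, -0.21 under TAA and 0.03 in BSS eyes, with the median of all probe sets at 0.00, 0.01 and 0.01.

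**Figure D1:**
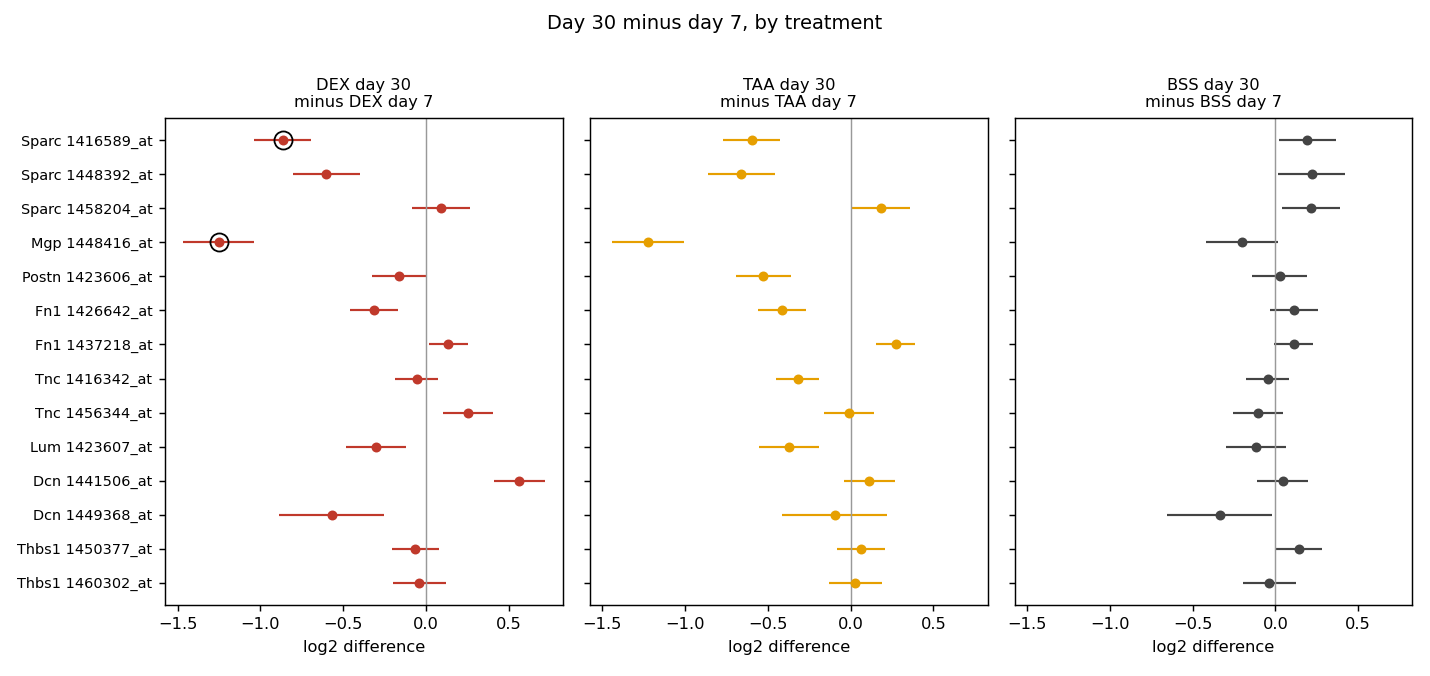
Day 30 minus day 7 for the 14 probe sets under DEX, TAA and BSS, as log2 differences (points) with their standard errors (bars), 3 arrays per group. Ringed points are called: Mgp (-1.25) and Sparc 1416589_at (-0.87) under DEX, and none under TAA or BSS.

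Mgp was the member with the widest difference between days. Its values were -0.99, -0.74 and -0.40 on the DEX day 30 arrays, against 0.67, 0.49 and 0.47 on the DEX day 7 arrays. Every DEX day 30 array lay below every DEX day 7 array. Mgp fell by 1.25 ± 0.22 (SE, n = 3 each; limma adjusted p = 0.0185), to 0.42 times its DEX day 7 value, and ranked 44th by p among all probe sets. As with every result here, arrays of whole retina cannot tell fewer cells of a type from less RNA per cell.

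Under TAA the Mgp values were similar in size. They were -0.34, -0.99 and -0.38 on the TAA day 30 arrays, against 0.88, 0.87 and 0.22 on the TAA day 7 arrays, again without overlap. The difference was -1.23 ± 0.22 (n = 3 each), with an unadjusted p of 2.37e-05 that ranked 6th of all probe sets but a limma adjusted p of 0.121. Without TAA day 30 replicate 2 it was -1.01 ± 0.22 (adjusted p = 0.264), without TAA day 7 replicate 2 it was -1.12 ± 0.24 (adjusted p = 0.326), and without TAA day 7 replicate 3 it was -1.44 (adjusted p = 0.0155), in a fit that called 33 of all probe sets. In BSS eyes Mgp was 0.23, -0.56 and -0.22 at day 30, against 0.06, -0.06 and 0.06 at day 7, groups that overlap. The difference was -0.20 ± 0.22 (95% interval -0.66 to 0.25, adjusted p = 0.853), and -0.02 ± 0.23 without BSS day 30 replicate 2.

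Sparc was read by 3 probe sets that did not behave alike. On 1416589_at the values were -0.58, -0.72 and -0.42 on the DEX day 30 arrays, against 0.44, 0.27 and 0.17 on the DEX day 7 arrays, and the groups were apart. This probe set fell by 0.87 ± 0.17 (n = 3 each; limma adjusted p = 0.0272), to 0.549 times its DEX day 7 value. On 1448392_at the values were -0.16, 0.02 and -0.15 on the DEX day 30 arrays, against 0.67, 0.57 and 0.27 on the DEX day 7 arrays. These also did not overlap, but the difference of -0.60 ± 0.20 had an adjusted p of 0.123. The remaining one, 1458204_at, had a difference of 0.09 ± 0.18 (adjusted p = 0.838) with overlapping groups. The annotation ties 1416589_at and 1448392_at to a Sparc RefSeq transcript and 1458204_at to an expressed sequence tag. Values of 1416589_at had the same sign as those of 1458204_at on 10 of 18 arrays, and as those of 1448392_at on 14 of 18.

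Under TAA, Sparc 1416589_at was -0.29, -0.52 and 0.02 on the day 30 arrays, against 0.60, 0.38 and 0.03 on the day 7 arrays. The groups did not overlap, but the highest day 30 array nearly met the lowest day 7 array. The difference was -0.60 ± 0.17 (adjusted p = 0.25), and -0.47 ± 0.18 without TAA day 30 replicate 2. On 1448392_at it was -0.66 ± 0.20 (adjusted p = 0.282) with overlapping groups. On 1458204_at it was 0.18 ± 0.18 (adjusted p = 0.716), and -0.06 without TAA day 7 replicate 2. In BSS eyes 1416589_at was 0.26, -0.31 and 0.24 at day 30, against -0.02, -0.22 and -0.14 at day 7. Its difference was 0.19 ± 0.17 (95% interval -0.17 to 0.55, adjusted p = 0.823), and 0.38 ± 0.17 without BSS day 30 replicate 2 (adjusted p = 0.902).

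**Figure D2:**
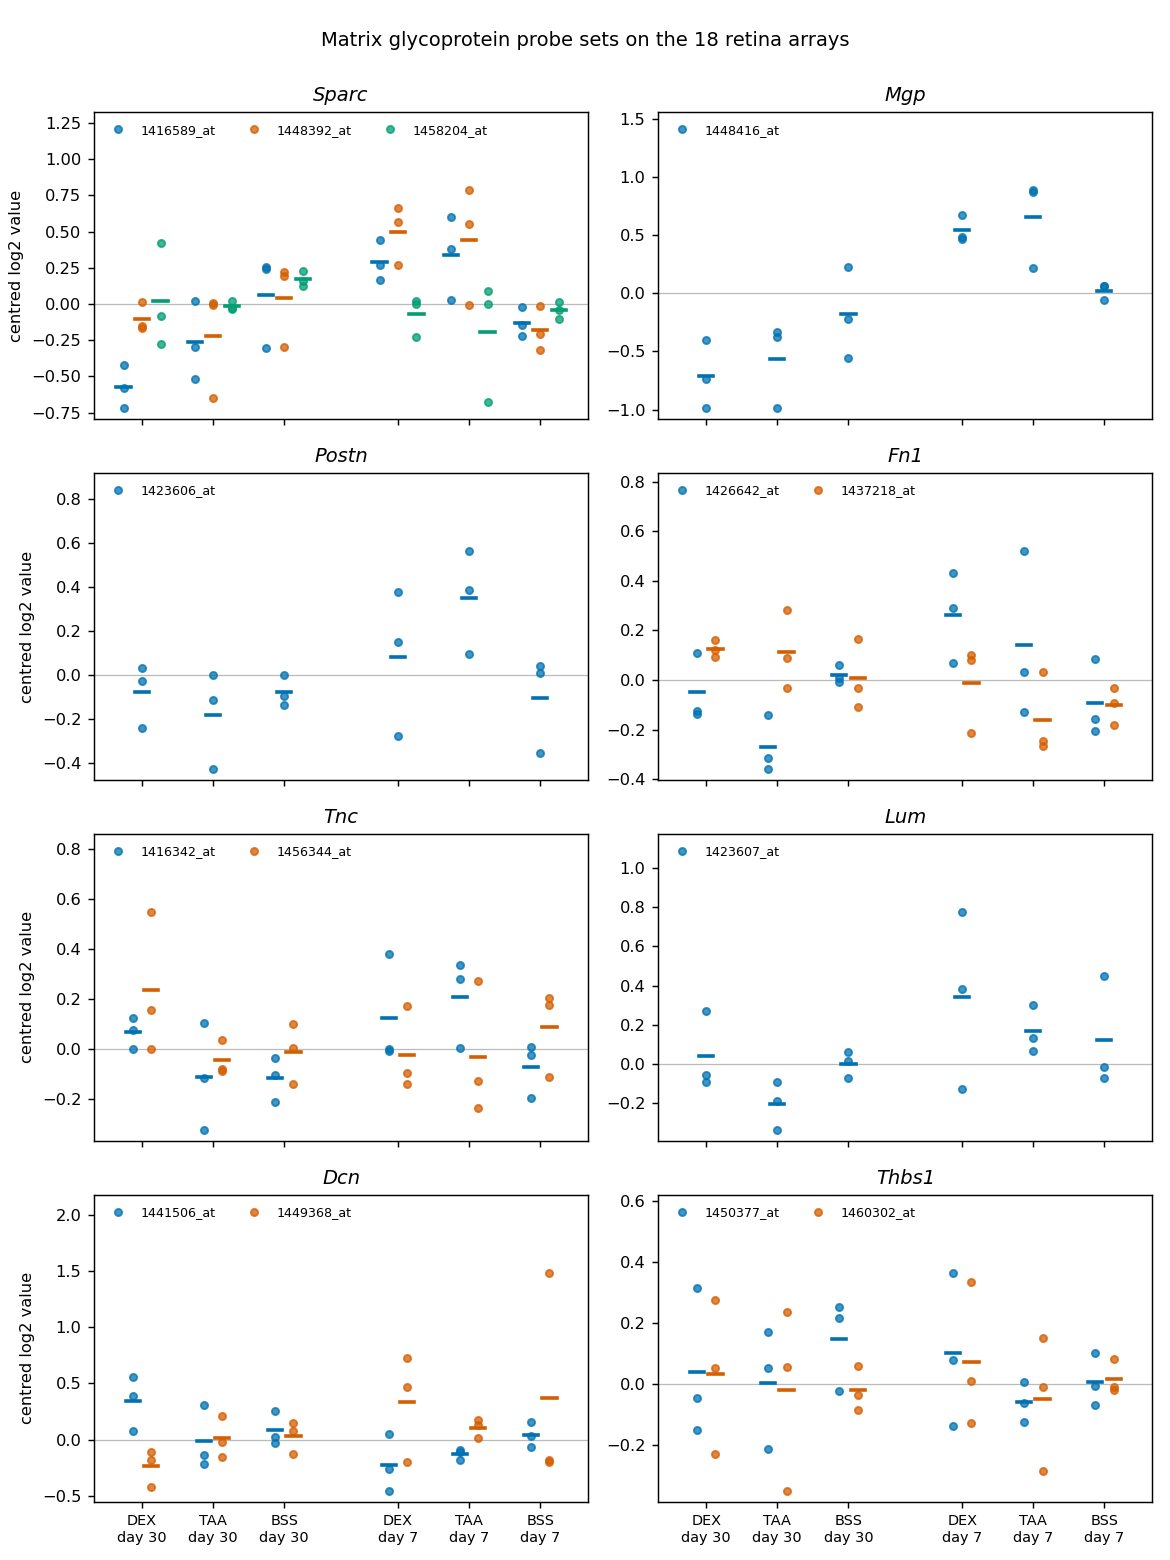
Centred log2 value of the 14 probe sets on each of the 18 arrays, by gene, with day 30 groups left of day 7 groups. Points are arrays, colours are probe sets and short bars are group means (n = 3); in the Mgp panel all 6 drug arrays of day 30 lie below all 6 drug arrays of day 7.

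The calls under DEX depended on which arrays were used. Both were lost when DEX day 7 replicate 1 or 2, or DEX day 30 replicate 1 or 2, was left out (0 of 14 called, with 2 to 9 calls among all probe sets), while the Mgp difference stayed between -1.11 and -1.41 and that of Sparc 1416589_at between -0.79 and -0.94 over all fits that left out 1 array. Both were also lost when the DEX arrays were fitted alone, where both had an adjusted p of 0.0607.

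Periostin, a matricellular protein that binds integrins and other matrix proteins, was 0.00, -0.43 and -0.11 on the TAA day 30 arrays, against 0.39, 0.56 and 0.10 on the TAA day 7 arrays. The groups did not overlap, and the Postn difference of -0.53 ± 0.17 had an adjusted p of 0.286. Without TAA day 30 replicate 2 it was -0.40 ± 0.18. Under DEX the Postn difference between days was -0.16 ± 0.17 (adjusted p = 0.655), with overlapping groups. In BSS eyes it was 0.02 ± 0.17 (adjusted p = 0.984).

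Tenascin C and thrombospondin 1 had smaller differences. Tnc 1416342_at differed by -0.32 ± 0.13 between TAA day 30 and TAA day 7 (adjusted p = 0.364) and by -0.06 ± 0.13 under DEX (adjusted p = 0.869). The second Tnc probe set, 1456344_at, differed by -0.01 ± 0.15 under TAA and by 0.26 ± 0.15 under DEX (adjusted p = 0.985 and 0.39), and the 2 Tnc probe sets had the same sign on 8 of 18 arrays. The annotation ties 1416342_at to a Tnc RefSeq transcript and 1456344_at to an expressed sequence tag. On 1456344_at the TAA difference was 0.14 without TAA day 7 replicate 2, and the DEX difference was 0.10 without DEX day 30 replicate 2, the highest array at 0.55. Both Thbs1 probe sets lay between -0.06 and 0.14 in all 3 comparisons of the days, with overlapping groups. The lowest and highest arrays of Thbs1 1450377_at were -0.21 and 0.36, which makes its range of 0.576 narrow beside the 1.87 of Mgp.

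Fibronectin was read by 2 probe sets whose differences between the days had opposite signs under both drugs and the same sign in BSS eyes, where both were 0.11. Fn1 1426642_at was -0.14, -0.31 and -0.36 on the TAA day 30 arrays, against 0.03, 0.52 and -0.13 on the TAA day 7 arrays. The groups did not overlap, though only narrowly, and the difference was -0.41 ± 0.15 (adjusted p = 0.317). Without TAA day 7 replicate 2 it was -0.22 ± 0.13 (adjusted p = 0.739). Under DEX it was -0.31 ± 0.15 (adjusted p = 0.258). Fn1 1437218_at was higher at day 30, by 0.27 ± 0.12 under TAA and 0.14 ± 0.12 under DEX (adjusted p = 0.384 and 0.586), so the 2 probe sets give no single direction for the gene. The annotation ties 1437218_at to an expressed sequence tag and 1426642_at to a cDNA sequence.

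The proteoglycans were read by 1 probe set for lumican and 2 for decorin, and no difference between the days passed for any of them. Lum was -0.09, -0.34 and -0.19 on the TAA day 30 arrays, against 0.13, 0.30 and 0.07 on the TAA day 7 arrays, without overlap, and its difference of -0.37 ± 0.18 had an adjusted p of 0.431. Under DEX the Lum difference was -0.30 ± 0.18 (adjusted p = 0.397), with overlapping groups and a single high array, 0.78 on DEX day 7 replicate 3, without which the difference was -0.09. Dcn 1441506_at was 0.08, 0.39 and 0.56 on the DEX day 30 arrays, against -0.46, -0.26 and 0.05 on the DEX day 7 arrays, groups that did not overlap. Its difference of 0.56 ± 0.15 had an adjusted p of 0.0658, which was 0.0445 without DEX day 7 replicate 3 (difference 0.70, 662 of all probe sets called) and 0.0280 with array weights (difference 0.48, 7674 called). The second Dcn probe set, 1449368_at, differed by -0.57 ± 0.32 (adjusted p = 0.356), and the 2 had the same sign on 4 of 18 arrays. The annotation ties 1441506_at to an expressed sequence tag and 1449368_at to a Dcn RefSeq transcript.

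Drug and vehicle eyes were compared at each day to ask which of these genes a steroid moved. No member was called in any of the 4 comparisons. For DEX day 30 against BSS day 30, 0 of 14 were called (0% of all), 2 had an unadjusted p under 0.05, both lower, against 11.3% of all, and 2 did not overlap, 1 in each direction, against 13.9%. For TAA day 30 against BSS day 30, 0 of 14 were called (0% of all), 0 had an unadjusted p under 0.05 (6.74% of all) and 3 did not overlap, all lower (12.8% of all). For DEX day 7 against BSS day 7, 0 of 14 were called (0% of all), 4 had an unadjusted p under 0.05, all higher, against 3.38% of all, and 3 did not overlap, all higher, against 13.8%. For TAA day 7 against BSS day 7, 0 of 14 were called (0.00222% of all, a single probe set), 5 had an unadjusted p under 0.05, all higher, against 3.75% of all, and 5 did not overlap, 4 higher and 1 lower, against 9.91%.

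Mgp and the Sparc probe sets 1416589_at and 1448392_at had mean values above vehicle at day 7 and below it at day 30, with no difference past the threshold. Sparc 1458204_at lay below vehicle on both days, by -0.15 ± 0.18 for DEX and -0.18 ± 0.18 for TAA at day 30, where the TAA arrays (-0.03, 0.02 and -0.03) did not overlap the BSS arrays (0.13, 0.23 and 0.16), and by -0.03 ± 0.18 for DEX and -0.15 ± 0.18 for TAA at day 7. The last of these was 0.09 without TAA day 7 replicate 2. At day 30, Sparc 1416589_at had -0.58, -0.72 and -0.42 on DEX arrays, against 0.26, -0.31 and 0.24 on BSS arrays, which did not overlap, and a difference of -0.64 ± 0.17 (limma adjusted p = 0.374). Without BSS day 30 replicate 2, the low vehicle array, that difference was -0.82 ± 0.17 (adjusted p = 0.213). Without DEX day 30 replicate 3 it was -0.71 (adjusted p = 0.0444), in a fit that called 2009 of all probe sets, against 0 with all arrays. Mgp at day 30 differed by -0.53 ± 0.22 for DEX and by -0.39 ± 0.22 for TAA (adjusted p = 0.399 and 0.771), with overlapping groups in both. For TAA the Mgp difference was -0.17 ± 0.22 without TAA day 30 replicate 2.

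At day 7, Mgp had 0.67, 0.49 and 0.47 on DEX arrays and 0.88, 0.87 and 0.22 on TAA arrays, against 0.06, -0.06 and 0.06 on BSS arrays. All 6 drug arrays lay above all 3 vehicle arrays. The difference was 0.52 ± 0.22 for DEX and 0.64 ± 0.22 for TAA, and the adjusted p was 1 in both. Sparc 1448392_at had 0.67, 0.57 and 0.27 on DEX arrays, and 0.55, 0.79 and -0.008 on TAA arrays. On BSS arrays it had -0.014, -0.31 and -0.21, so the TAA arrays lay above them only narrowly. Its differences of 0.68 ± 0.20 and 0.62 ± 0.20 had an adjusted p of 1 each, and the TAA difference was 0.45 ± 0.21 without TAA day 7 replicate 2. On Sparc 1416589_at the differences were 0.42 ± 0.17 for DEX and 0.47 ± 0.17 for TAA. These 2 comparisons share their BSS arrays.

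**Figure D3:**
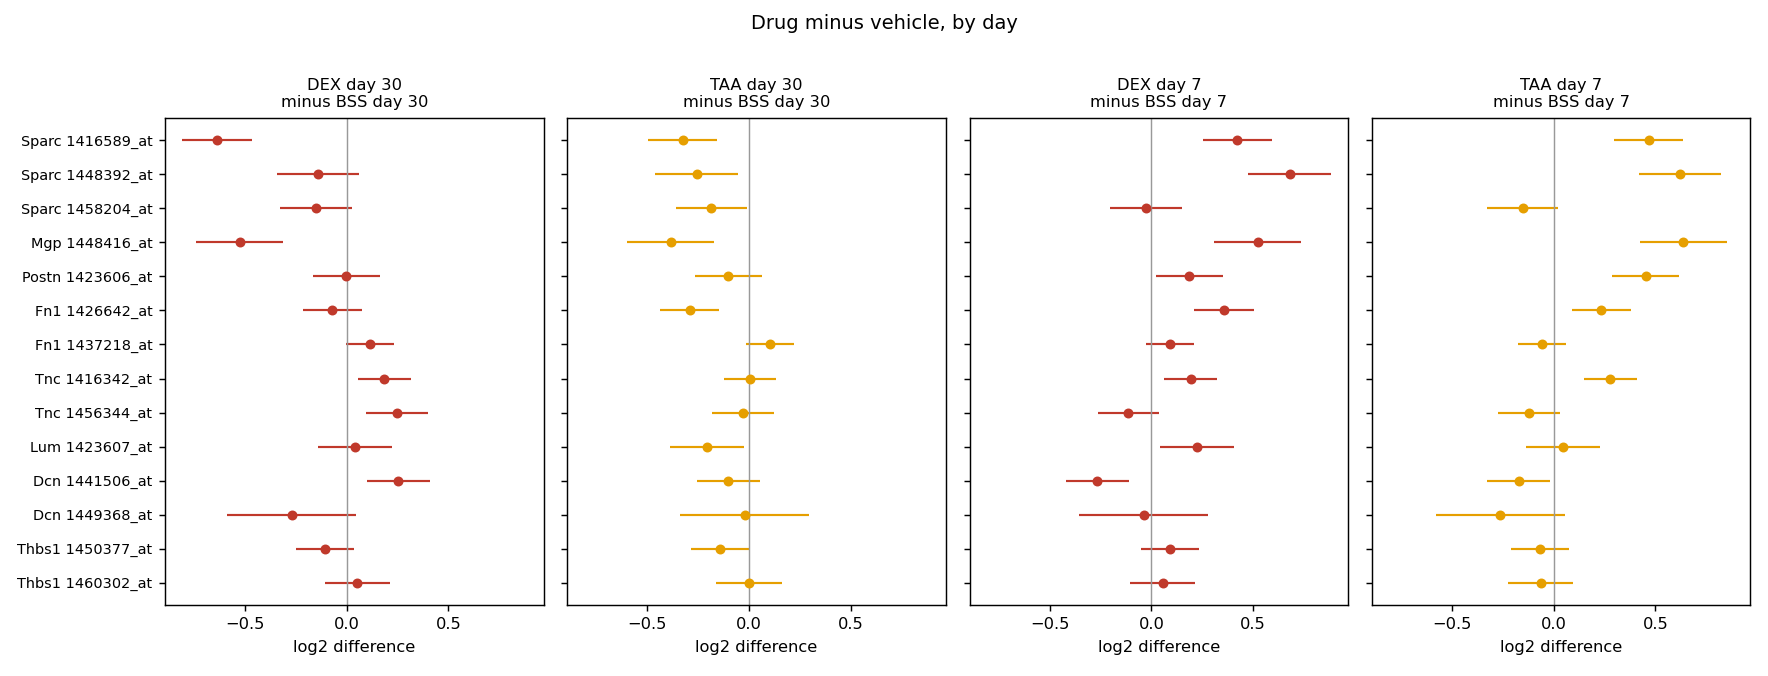
DEX or TAA minus BSS at day 30 (left pair of panels) and day 7 (right pair) for the 14 probe sets, as log2 differences (points) with standard errors (bars), 3 arrays per group. No point is called; Sparc 1448392_at and Mgp lie to the right of 0 at day 7 and to the left of 0 at day 30 under both drugs.

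Among the other members at day 7, Postn differed from vehicle by 0.45 ± 0.17 under TAA, with 0.39, 0.56 and 0.10 on TAA arrays against 0.01, 0.04 and -0.36 on BSS arrays. The groups were apart, and without TAA day 7 replicate 2 the difference was 0.34 ± 0.18. Fn1 1426642_at differed by 0.36 ± 0.15 under DEX, with 0.43, 0.07 and 0.29 on DEX arrays against -0.20, -0.16 and 0.08 on BSS arrays, which overlap. Tnc 1416342_at differed by 0.28 ± 0.13 under TAA. Dcn 1449368_at had a single outlying vehicle array, 1.48 on BSS day 7 replicate 1 with the other vehicle arrays at -0.18 and -0.20. Its DEX difference of -0.04 ± 0.32 was 0.52 ± 0.20 without that array, and its TAA difference of -0.26 ± 0.32 was 0.30 ± 0.20. At day 30, Fn1 1426642_at and Lum lay below vehicle without overlap under TAA, by -0.29 ± 0.15 and -0.21 ± 0.18 (adjusted p = 0.752 and 0.861). Tnc 1416342_at lay above vehicle without overlap under DEX, by 0.18 ± 0.13 (adjusted p = 0.596).

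Whether the effect of a drug changed between the days was tested as an interaction, the drug minus vehicle difference at day 30 less that at day 7. For DEX 0 of 14 were called (0% of all) and 4 had an unadjusted p under 0.05, 3 lower and 1 higher, against 8.16% of all. For TAA 0 of 14 were called (0% of all) and 5 had an unadjusted p under 0.05, all lower, against 5.63% of all. Sparc 1416589_at had a change of -1.06 ± 0.24 for DEX (unadjusted p = 0.000371, ranked 27th of all probe sets; adjusted p = 0.491) and of -0.79 ± 0.24 for TAA (adjusted p = 0.815). Mgp had a change of -1.05 ± 0.30 for DEX and of -1.02 ± 0.30 for TAA (adjusted p = 0.491 and 0.815). Dcn 1441506_at was the higher one for DEX, with 0.52 ± 0.22 (adjusted p = 0.578). The fall of Mgp and Sparc under DEX was therefore not shown to differ from the change in vehicle eyes.

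Dexamethasone and triamcinolone share a fluorinated glucocorticoid skeleton, and dexamethasone carries a methyl group where triamcinolone carries an oxygen. They were set against each other at matched days but without a stated dose. For DEX day 30 against TAA day 30, 0 of 14 were called (0% of all), 1 had an unadjusted p under 0.05 (15.8% of all) and 1 did not overlap (14% of all). For DEX day 7 against TAA day 7, 0 of 14 were called (0% of all), 0 had an unadjusted p under 0.05 (6.1% of all) and 0 did not overlap (12.2% of all). At day 30 Mgp differed by -0.14 (95% interval -0.59 to 0.31) and Sparc 1416589_at by -0.31 (interval -0.67 to 0.05). The member with an unadjusted p under 0.05 was Dcn 1441506_at, at 0.36 (interval 0.03 to 0.68; adjusted p = 0.271), or 0.25 without TAA day 30 replicate 2. The one without overlap was Fn1 1426642_at, with -0.135, 0.11 and -0.12 on DEX arrays against -0.140, -0.31 and -0.36 on TAA arrays. These groups were apart only narrowly, and the difference was 0.22 (interval -0.08 to 0.53). At day 7 Mgp differed by -0.11 (interval -0.57 to 0.34), Sparc 1448392_at by 0.06 (interval -0.37 to 0.49) and Postn by -0.27 (interval -0.61 to 0.08; adjusted p = 0.877). Without TAA day 30 replicate 2 the day 30 difference of Mgp was -0.35. Without TAA day 7 replicate 2 the day 7 differences were -0.01 for Mgp, 0.23 for Sparc 1448392_at and -0.16 for Postn.

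Across the 18 arrays Sparc 1416589_at and Mgp had the same sign on 14, with a Pearson correlation of 0.903, and of 0.81 after the group means were taken out. Both values are descriptions, since the arrays share groups and processing. Lum and Dcn 1449368_at had the same sign on 14 arrays as well (r = 0.643), Postn and Mgp on 12 (r = 0.679), and Thbs1 1450377_at and Mgp on 10 (r = 0.00430). Dcn 1449368_at was 1.48 on BSS day 7 replicate 1, where Lum was 0.45, and their r was not computed without that array.

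**Figure D4:**
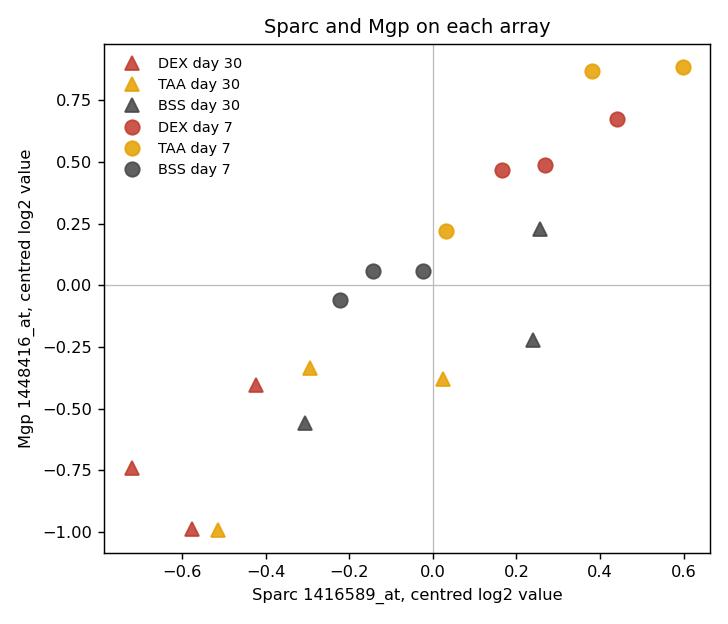
Mgp against Sparc 1416589_at on each of the 18 arrays, both as centred log2 values; colours mark the treatment, triangles day 30 and circles day 7. The DEX day 30 arrays lie at lower left (Mgp -0.99 to -0.40) and the DEX day 7 arrays at upper right (Mgp 0.47 to 0.67).

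The 3 genes most like each member were taken by Pearson correlation over the 18 arrays, among 18193 genes at their most variable probe set. For Mgp they were Igfbp2, which binds insulin-like growth factors (r = 0.907), Sparc (0.903) and Mt1, a metallothionein that binds zinc (0.899). For Sparc they were S100a1, a calcium-binding protein (0.911), Fxyd1, a regulator of the sodium pump (0.909), and Mgp (0.903). The correlations were lower for the rest, with Spsb1, Tns2 and Ttpa for Postn (0.724 to 0.814), Ets2, Zfp318 and Slc41a3 for Fn1 (0.835 to 0.865), and Atxn10, Mbtd1 and Rbm46 for Tnc (0.831 to 0.865). For Lum they were Slc36a1, Add3 and Minar1 (0.783 to 0.839), and for Thbs1 Mir1949, Cacng1 and Pik3ap1 (0.807 to 0.816). For Dcn 1449368_at they were Mlana, Rab2b and Pmel (0.742 to 0.826), and Mlana and Pmel encode melanosome proteins of pigment cells. The Dcn correlations include its outlying array, BSS day 7 replicate 1 at 1.48, and were not computed without it. The best of so many genes is high for any pattern, and nothing about a shared function follows.

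The wider matrix pathway was described with 7 lists of 135 genes, 129 of them measured, at the most variable probe set of each gene. Between DEX day 30 and DEX day 7, 4 of 129 were called, 2 higher and 2 lower, beside the 1.92% of all probe sets given above. That share covers all probe sets, and a fit at the most variable probe set of each gene called 479 of 18193 genes. Of the 129 differences 46 were above 0, with a median of -0.09. In each of the other 10 comparisons 0 of 129 were called. When 1 DEX array was left out, a check added after seeing the data, the count ran from 0 to 6: it was 0 without DEX day 7 replicate 1, DEX day 30 replicate 1 or DEX day 30 replicate 2, 1 without DEX day 7 replicate 2, 3 without DEX day 7 replicate 3 and 6 without DEX day 30 replicate 3. Among all probe sets the last 2 fits called 662 and 2874, and the other 4 called 2 to 9. Itgav, the alpha subunit of the integrins that bind vitronectin, fibronectin and periostin, rose by 0.83 ± 0.16 (adjusted p = 0.0237). Spock3, a testican related to Sparc, rose by 0.58 ± 0.14 (adjusted p = 0.0428). Tgfb3, a ligand of the TGF-beta family, fell by 0.49 ± 0.11 (adjusted p = 0.0402). Vkorc1, the reductase that recycles vitamin K for the carboxylation that Mgp needs, fell by 0.64 ± 0.15 (adjusted p = 0.0439). The calls of these 4 genes were lost without DEX day 7 replicate 1 or 2 or DEX day 30 replicate 1 or 2. That of Vkorc1 was also lost without DEX day 7 replicate 3 (adjusted p = 0.0690). The 1 gene called without DEX day 7 replicate 2 was therefore not among them.

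By list, in the same comparison of DEX day 30 with DEX day 7, the matricellular relatives had 1 of 22 higher and 0 lower, the receptors 1 of 16 higher and 0 lower, the TGF-beta and BMP genes 0 of 19 higher and 1 lower, and the proteases, inhibitors and crosslinkers 0 of 21 higher and 1 lower. The proteoglycans and small leucine-rich repeat relatives (17), the elastic fibre and basement membrane glycoproteins (22) and the collagens (12) had 0 called. Of these, Col3a1, a chain of fibrillar collagen, had the widest difference, -1.64 ± 0.44 (adjusted p = 0.0606). Bgn (biglycan) differed by -0.62 ± 0.20 (adjusted p = 0.106), Prelp by -0.53 ± 0.17 (adjusted p = 0.0992) and Fbln5, which helps assemble elastic fibres, by -0.48 ± 0.14 (adjusted p = 0.0783). Ecm1 differed by -0.51 ± 0.16 (adjusted p = 0.0977) and Lox, which crosslinks collagen and elastin, by -0.29 ± 0.13 (adjusted p = 0.224).

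In the comparisons of drug with vehicle the related genes of smallest p at day 7 under TAA included Adamts1, a protease that cleaves proteoglycans (0.98 ± 0.27), Plat, tissue plasminogen activator (0.49 ± 0.15), Tnxb (0.61 ± 0.21) and Ccn4 (0.37 ± 0.13), each with an adjusted p of 1. Under DEX at day 7 they included Col3a1 (1.42 ± 0.44), Col1a2 (0.68 ± 0.25) and Adamts1 (0.62 ± 0.27), also with an adjusted p of 1. At day 30 under TAA they included Timp4, an inhibitor of matrix metalloproteases (-0.48 ± 0.12), Lox (-0.40 ± 0.13), Col4a1 of basement membranes (0.83 ± 0.23), Fbln1 (1.45 ± 0.43) and Ogn (1.85 ± 0.60), all with an adjusted p of 0.721. On TAA day 30 replicates 1, 2 and 3 the mean of the collagen list was 0.04, 0.03 and 0.36. That of the elastic fibre and basement membrane list was 0.08, 0.01 and 0.27, and that of the proteoglycan list 0.01, 0.12 and 0.13. At day 30 under DEX they included Itgav (0.65 ± 0.16), Tgfb3 (-0.37 ± 0.11) and Ccn4 (0.42 ± 0.13), all with an adjusted p of 0.374.

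Markers of other cells also differed between DEX day 30 and DEX day 7, the comparison in which Mgp and Sparc fell. The mean of 5 astrocyte and reactive glia genes ran from -1.15 to -0.05 on DEX day 30 arrays, against 0.21 to 0.78 on DEX day 7 arrays, and 0 of 5 differences were above 0. Gfap, the glial intermediate filament, fell by 1.79 ± 0.40 (adjusted p = 0.0353), and Serpina3n differed by -2.42 ± 0.77 (adjusted p = 0.103). The mean of 8 leukocyte and microglia genes ran from -0.47 to 0.34, against 0.15 to 0.69, with 0 of 8 above 0, and Cd52 fell by 1.04 ± 0.25 (adjusted p = 0.0404) beside Csf1r at -1.07 ± 0.30 (adjusted p = 0.068). The mean of 10 pericyte and smooth muscle genes ran from -0.18 to -0.03, against 0.12 to 0.17, with 2 of 10 above 0. The widest differences were those of Abcc9 (-0.53 ± 0.17) and Rgs5 (-0.47 ± 0.23), neither of them called. The mean of 10 endothelial genes ran from -0.15 to -0.08, against 0.11 to 0.15, with 2 of 10 above 0. There Vwf differed by -1.07 ± 0.28 and Cldn5 by 0.58 ± 0.32, again without a call. The mean of 10 fibroblast and ocular stroma genes, 5 of which are also in the collagen list, overlapped between the days, from -0.14 to 0.16 against -0.07 to 0.36. The lists of rod photoreceptors (6 of 7), Mueller glia (3 of 8), pigment epithelium (9 of 10), lens (7 of 8), cornea and surface epithelium (3 of 6) and erythrocytes (1 of 4), with the number of genes whose difference was above 0, had no gene called. The calls of Gfap and Cd52 were lost without DEX day 7 replicate 1 or 2 or DEX day 30 replicate 1 or 2, and that of Gfap also without DEX day 7 replicate 3 (adjusted p = 0.0518). The part of these cells in the fall of Mgp and Sparc was not tested.

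Under TAA the reactive glia mean ran from -0.89 to 0.19 at day 30, against 0.07 to 2.31 at day 7, with 0 of 5 differences above 0. Of the lens genes 8 of 8 had a higher mean at day 30, but the list means overlapped between the days. From lowest to highest they were 0.16, 0.27 and 4.16 at day 30, against -1.87, -0.09 and 0.52 at day 7. At day 7 the reactive glia mean was 0.21 to 0.78 with DEX and 0.07 to 2.31 with TAA, against -0.69 to -0.20 with BSS. The stroma mean was -0.07 to 0.36 with DEX, which overlapped the -0.15 to -0.02 with BSS, and 0.03 to 0.25 with TAA. The endothelial mean was 0.11 to 0.15 with DEX and -0.23 to 0.23 with TAA, against -0.03 to 0.01 with BSS. The pericyte and smooth muscle mean was 0.12 to 0.17 with DEX and 0.04 to 0.15 with TAA, against -0.05 to 0.09 with BSS. The pigment epithelium mean was -0.61 to 0.23 with DEX and -0.37 to 0.04 with TAA, against 0.17 to 0.33 with BSS. Whether any of these cell types contributed to the members' values was not tested.

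**Figure D5:**
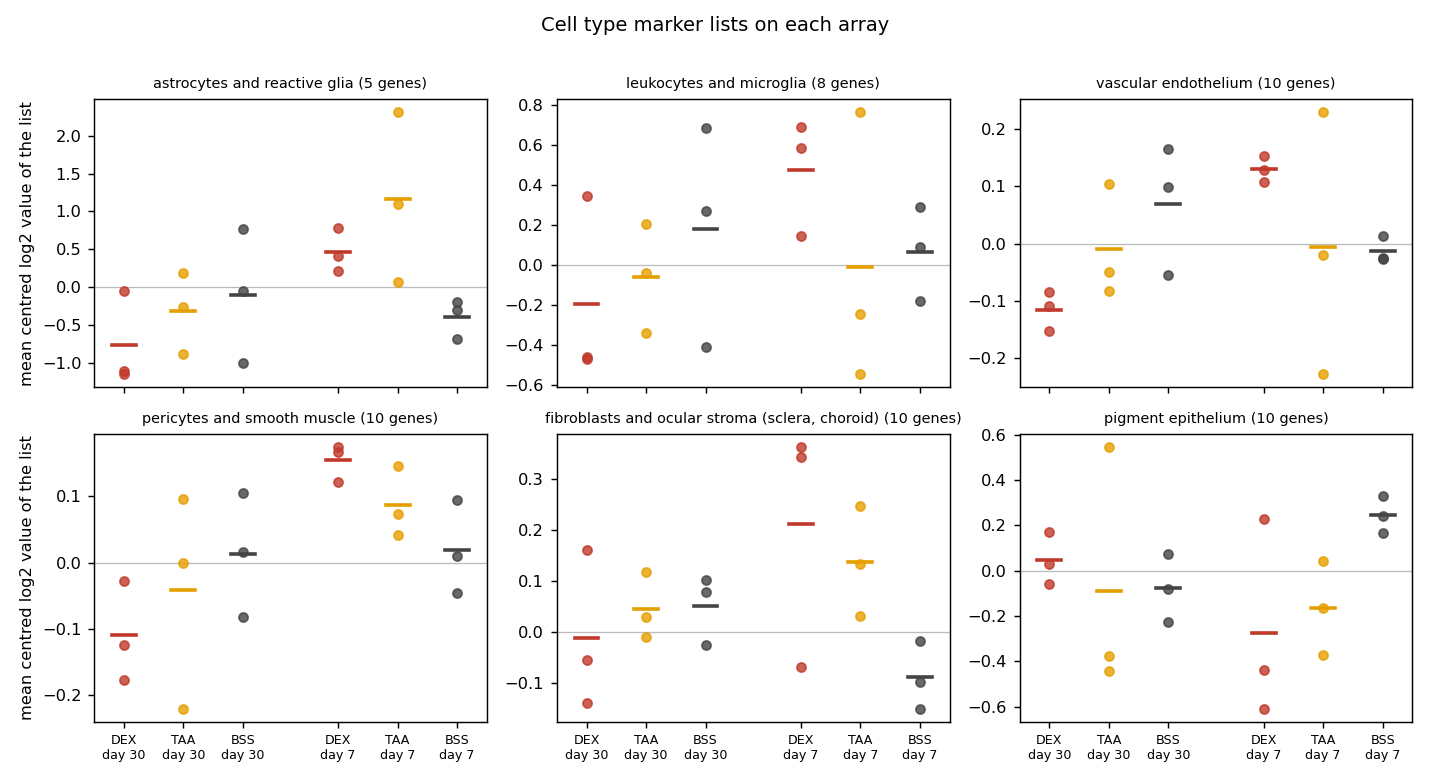
Mean centred log2 value of 6 marker lists on each array (points), with group means (bars, n = 3) and day 30 groups left of day 7 groups. The reactive glia mean lies between -1.15 and -0.05 on DEX day 30 arrays and between 0.21 and 0.78 on DEX day 7 arrays.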

How the data were processed

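RNA of 18 mouse retinas was measured on Affymetrix arrays after two-cycle labelling, per the labels' protocols. The authors processed the arrays with RMA, per the submitters' processing notes; its version is not given in the sources used here. The values as deposited by the authors are read as log2: the log base and direction follow RMA's convention, and all 45101 probe sets had a median over the 18 arrays within 5e-07 of 0, so they are centred and hold no level. No filter on level, signal over background or expression could be applied, and no scan date or batch is in the labels.

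Groups came from the sample titles. After 64 control probe sets were left out, limma 3.58.1 in R 4.3.3 was fitted to 45037 probe sets with 1 coefficient per group (12 residual and 5.48 prior degrees of freedom) and 11 comparisons, with Benjamini-Hochberg adjustment over all probe sets. Gene names are those of the platform annotation, in which 34945 probe sets name 1 gene, 932 several, and 9160 are unnamed here. On simulated data for TAA day 7 against BSS day 7 (45037 probe sets), the fit called 31.9% of changes of 0.5, 88.7% of 1 and 99.7% of 2, with 0.0196% of unchanged probe sets. The simulated noise was normal, independent and of equal spread on every array, and the changes fell on random probe sets. Residual SDs of the members ran from 0.136 (Fn1 1437218_at) to 0.456 (Dcn 1449368_at), with Mgp at 0.299, against the median of 0.167. These rates therefore do not give the chance of a call for a member.

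The 8 genes, the 7 related lists and the 11 marker lists were chosen with earlier results of these data known. All members are named; of each related list, the genes that passed or otherwise the 2 of smallest p in each comparison, of which the text gives a part; of each marker list, the 2 of largest difference where it moved with a member, and Cd52, which passed. Of 217 list genes 208 were measured, 5 through a newer symbol. Alternatives were the choice or mean of probe sets per gene, the compared groups alone, array weights, a robust prior, quantile normalization, centred arrays, a replicate block and leaving out each array; the leave-out counts of related genes were added after seeing the data.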

Additional observations from a re-analysis of the deposited data

How the results depend on the processing

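For the number of members called, DEX day 30 against DEX day 7 gave 2, and 1 with the mean of the probe sets of a gene (Mgp; Sparc then differed by -0.46, adjusted p = 0.0561), 0 with the compared groups alone, 4 with array weights, and 0 to 3 when 1 array was left out. DEX day 30 against BSS day 30 gave 2 with array weights (4823 called among all probe sets) and 0 to 1 when 1 array was left out (0 to 2009), TAA day 30 against TAA day 7 gave 0 to 1 (0 to 33), and the change of the DEX effect gave 3 with array weights (2773), against 0 in each as reported. Array weights ran from 0.206 on TAA day 30 replicate 2 to 4.23 on TAA day 7 replicate 3. Among the DEX arrays the lowest weight was 0.289, on DEX day 30 replicate 3. With weights, the calls among all probe sets for DEX day 30 against DEX day 7 moved to 7674, against 863, and the cause was not tested. That count was 479 with 1 probe set per gene and 456 with the mean, where fewer features are tested. It was 532 with quantile normalization, 1 with the compared groups alone, and 2 to 2874 when 1 array was left out, the highest without DEX day 30 replicate 3.

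The replicate numbers were not taken to pair the arrays: the correlation of deviations from group means had a median of 0.0516 over 45 same-number pairs, of which 17 were over 0.1, and of -0.0173 over 90 other pairs, of which 17 were over 0.1. For DEX day 30 with BSS day 30 all 3 same-number pairs were over 0.1 (0.114 to 0.242), and there the block changed no member's call. For DEX day 30 with DEX day 7 the same-number pairs ran from 0.0729 to 0.241, against -0.256 to 0.0534 for the other pairs. Whether the numbers pair these arrays cannot be told, since the labels state no pairing. With the replicate number as a block, 3 members were called between DEX day 30 and DEX day 7, the third being Dcn 1441506_at (0.56, adjusted p = 0.0440), 974 probe sets were called in all, and no member was called in the other comparisons. Of 2192 single differences refitted, 0 turned sign after a call, 11 lost a call, 11 gained one and 135 differences with no call changed sign.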
